A study of Drosophila melanogaster with 8 samples.

Results

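Transcripts of sorted clock neurons from adult Drosophila melanogaster brains were compared between circadian time 6 h (CT6, the subjective midday) and circadian time 0 h (CT0, the subjective dawn). The comparison takes the 2 libraries labelled CT6 and the 2 labelled CT0, 4 of the 8 libraries in the series, and asks how transcript levels differ over the first 6 h of the subjective day. The other 4 libraries, from CT12 and CT18, entered the fit to estimate the spread between duplicates. Every library, at CT6 and at CT0 alike, carried the same genotype: Clk-GAL4 with UAS-GFP-NLS (given in the sorting protocol as UAS-tetR-GFP-NLS) and UAS-mor-RNAi. Both transgenes were active in the cells where the Clk-GAL4 driver is active, and no library of another genotype was analysed here, so the values describe neurons with mor knockdown only. Flies were kept in cycles of 12 h of light and 12 h of dark for 5 days and collected on day 2 of constant darkness. About 2000 live cells per sample were sorted by their nuclear green fluorescent protein (GFP) and by the lack of DAPI, a dye that enters dead cells, and part of each lysate was made into polyA cDNA. The labels give no sex, and no age beyond adult, and they do not say what the 2 replicates of a time share, so p-values measure the spread between these libraries, which may be technical.

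The fly clock is a transcriptional feedback loop. The activators CLK and CYC switch on per and tim, whose proteins accumulate late, enter the nucleus and shut their own activators off until they are degraded around dawn. The same activators drive vri and Pdp1, which act back on Clk transcription, and cwo, which competes at shared sites. In fly heads, tim, per and vri transcripts are known to climb from a trough in the morning towards the evening, while Clk transcripts are highest around dawn. Clock neurons also differ from one another in the neuropeptides they release, such as PDF of the ventral lateral neurons.

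Total estimated counts were 28031483 and 21928087 in CT6 replicates 1 and 2, and 29346348 and 24680842 in CT0 replicates 1 and 2. All levels below are TMM-normalized CPM, counts scaled for library size and composition, and pairs of values are given as replicate 1, then replicate 2. A floor of 3 counts corresponds to 0.109 and 0.143 CPM in the CT6 libraries, and to 0.106 and 0.127 CPM in the CT0 libraries, and it covers counting error only. Neuron markers (elav, nSyb, Syt1, brp and fne) summed to 3494 and 2959.7 CPM at CT6, against 3174 and 3100.1 CPM at CT0. The glial identity gene repo stood at 0.398 and 0.714 CPM at CT6, against 0.0709 and 0 CPM at CT0, and all 12 glial markers summed to 175 and 168 CPM at CT6, against 326 and 157 CPM at CT0. The targeted gene mor (3R 15968134 to 15972913), which encodes the scaffold protein MOR of the Brahma nucleosome remodeller, had 21.8 and 7.9 CPM at CT6, against 11.5 and 13 CPM at CT0. The CT6 duplicates lay on both sides of the CT0 pair, and these values do not measure the knockdown.

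CT6 replicate 1 stood apart from the other 3 libraries. It held 89.3 CPM of Pdf (3R 26455462 to 26456141), the peptide of the ventral lateral neurons and main output signal of the network, while CT6 replicate 2 held 37187 CPM and the CT0 libraries held 21182 and 26519 CPM. NPF, a peptide of feeding and arousal carried by a subset of lateral clock neurons, had 28.2 and 2748 CPM at CT6, against 694 and 622 CPM at CT0. Lk, leucokinin, a peptide of a few brain neurons that acts on water balance and sleep, had 1021 and 7.85 CPM at CT6, against 2.59 and 3 CPM at CT0. In bulk samples, fewer cells of a type and less RNA per cell cannot be told apart. Among the 5766 genes whose log2 CPM averaged 4 or more, the CT6 duplicates differed by a median of 0.406 log2 units, against 0.303 for the CT0 duplicates. Of these genes 9.8% differed by more than 1 log2 unit between the CT6 duplicates, against 4.28% between the CT0 duplicates. The main differences below are therefore also given without CT6 replicate 1.

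The edgeR quasi-likelihood test, on all 8 libraries and with Benjamini-Hochberg adjustment over the 9999 genes tested, called 0 genes between CT6 and CT0 (0% of genes), and every adjusted p was 1. At an unadjusted p under 0.05 the same fit had 320 genes (3.2%), of which 213 (2.13%) were higher at CT6 and 107 (1.07%) were lower. DESeq2 called 4 genes (0.04%), natalisin, E(spl)m6-BFM, SerT and Trh, and limma-voom called 0. With 2 libraries a time, a gene that was not called is not shown to be equal at the times. In 1323 genes (13.2%) both CT6 libraries lay above both CT0 libraries, and in 1183 (11.8%) both lay below. The count at an unadjusted p under 0.05 was 1062 without CT6 replicate 2, when the CT6 value is that of replicate 1 alone. Of the 320 genes, 66.6% were higher at CT6, against 46.8% of 237 genes without CT6 replicate 1 and 51.9% of 391 genes after each library's trend with gene length was removed. Since the edgeR test called no gene, higher and lower below describe these 4 libraries.

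**Figure D1:**
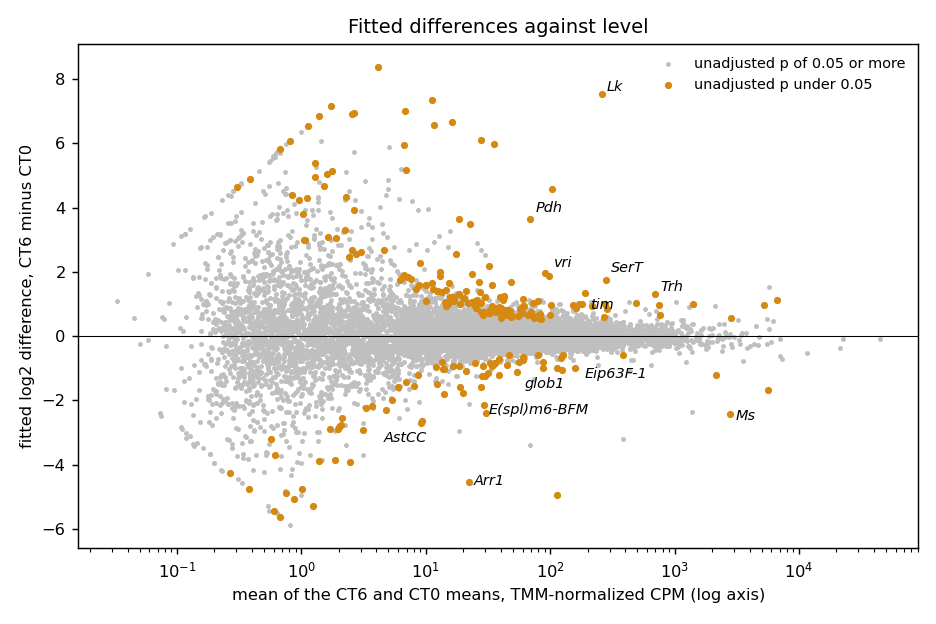
Fitted log2 difference, CT6 minus CT0 (vertical axis), against the mean of the 2 times' mean CPM (horizontal log axis) for each tested gene, without genes at 0 in both libraries of a time. Orange points have an unadjusted edgeR p under 0.05 and grey points do not. SerT and Trh lie among the higher genes, E(spl)m6-BFM and glob1 among the lower ones, and Lk and Arr1 owe their place to 1 library each.

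Of the 8 core clock genes, vri and tim were higher in both CT6 libraries than in both CT0 libraries (2 of 8, against 13.2% of all genes), and 0 of 8 passed the adjusted edgeR test. The gene vri (2L 5288944 to 5311223), which encodes a repressor of Clk transcription, had 226 and 80.5 CPM in the CT6 libraries, against 39 and 45.2 CPM in the CT0 libraries. Its fitted difference was 1.87 ± 0.51 log2 units (estimate ± SE, from 2 libraries a time and the spread of all 8 libraries; edgeR unadjusted p = 0.0051). The CT6 libraries did not overlap with the CT0 libraries, but CT6 replicate 1 was the highest by far, and without it the difference was 0.94. The gene tim (2L 3493986 to 3508119), partner of per in the repressor complex, had 379 and 168 CPM in the CT6 libraries, against 88.7 and 127 CPM in the CT0 libraries, a difference of 1.34 ± 0.46 (edgeR unadjusted p = 0.016). Again replicate 1 of CT6 was highest, the groups did not overlap, and the difference without it was 0.64. Exons of tim overlap a long noncoding RNA and small nucleolar RNAs, and whether counting used strand is not known.

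The other repressor, per, had 35.5 and 17.3 CPM in the CT6 libraries, against 7.87 and 18.1 CPM in the CT0 libraries. Its CT6 values overlapped with those of CT0 (difference 1.03 ± 0.56), and its exons overlap those of its neighbour dyw. Clk itself had 112 and 116 CPM in the CT6 libraries, against 86.7 and 297 CPM in the CT0 libraries. The CT6 libraries were nearly equal, and they lay between a low and a high CT0 library. That single CT0 replicate 2 set the sign of the fitted difference of −0.75 ± 0.56, which was 0.39 without it. Pdp1, the activator that acts on Clk, had 529.7 and 309.6 CPM at CT6, against 521 and 486 CPM at CT0, and cwo, a repressor that competes with CLK and CYC, had 48.5 and 37.1 CPM at CT6, against 38.8 and 69.7 CPM at CT0. The gene cry, the blue-light receptor of the clock, had 359.6 and 822 CPM at CT6, against 432 and 1148 CPM at CT0, with both replicate 2 libraries higher than both replicate 1 libraries. The activator partner cyc had 67.2 and 47.3 CPM at CT6, against 55.2 and 47.3 CPM at CT0. For these 4 genes the times overlapped and the fitted sign depended on 1 library.

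**Figure D2:**
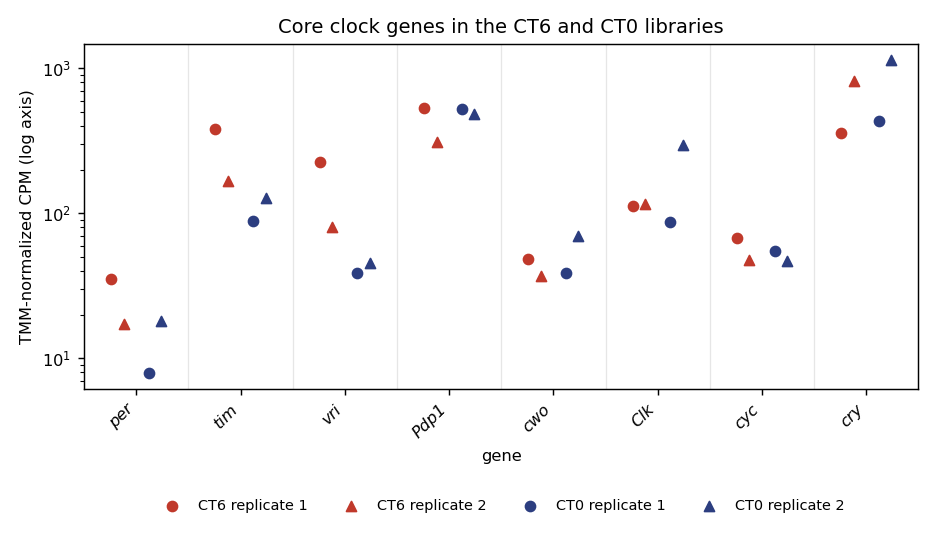
TMM-normalized CPM (log axis) of the 8 core clock genes in each library, with CT6 in red and CT0 in blue, circles for replicate 1 and triangles for replicate 2. The CT6 points of vri and tim lie above both CT0 points, and for the other 6 genes the times overlap.

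Genes that act on the clock proteins had fitted differences in both directions. Of 20 regulators (kinases such as dco, sgg and nmo, phosphatase subunits such as mts and tws, and ubiquitin ligase genes such as slmb and jet), 8 were higher and 12 lower at CT6, with a median difference of −0.10, a range of −0.79 to 0.56, and 0 at an unadjusted p under 0.05. The median of all genes tested was 0.01, with 51.6% of genes higher and 48.4% lower. Without overlap between the times, 4 of the 20 regulators were lower, against 11.8% of all genes, and 1 was higher, against 13.2%. The lowest, tyf, had 41.9 and 73.6 CPM at CT6, against 84.1 and 115.7 CPM at CT0, without overlap. Its difference was −0.79 ± 0.38, and −0.44 without CT6 replicate 1, and its exons overlap those of Tip60. Of 18 genes known to cycle in fly heads, 14 were tested, 3 were higher and 11 lower (median −0.51). Without CT0 replicate 1, 7 were higher and 7 lower, with a median of −0.01. Among these cycling genes Ugt35B1, a glycosyltransferase gene, had 2.24 and 10.4 CPM at CT6, against 28.5 and 15.4 CPM at CT0 (−1.79 ± 0.69, edgeR unadjusted p = 0.027, and −1.07 without CT6 replicate 1). Of 13 transcription factor and receptor genes that mark clock neuron classes, 9 were higher, with a median of 0.23, and −0.28 without CT6 replicate 1. The zinc finger gene gl, known in dorsal clock neurons, had 36 and 26.5 CPM at CT6, against 9.75 and 19.7 CPM at CT0, without overlap between the times, whereas Fer2, a factor of lateral and dorsal clock neurons, had 196 and 563 CPM at CT6, against 438 and 566 CPM at CT0.

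The genes of serotonin synthesis and reuptake were among those with the smallest p-values in the table. Trh (3L 1190384 to 1193173), the neuronal tryptophan hydroxylase that makes the first and rate-limiting step to serotonin, had 1157 and 817 CPM in the CT6 libraries, against 437 and 359 CPM in the CT0 libraries. Both CT6 libraries were higher than both CT0 libraries, by 1.31 ± 0.27 log2 units (edgeR unadjusted p = 0.0007; adjusted p = 0.00071 in DESeq2), and by 1.04 without CT6 replicate 1. SerT (2R 24404595 to 24411074), the transporter that takes serotonin back up, had 586 and 279 CPM in the CT6 libraries, against 122 and 136 CPM in the CT0 libraries. It differed by 1.75 ± 0.34 (edgeR unadjusted p = 0.00053; adjusted p = 0.00041 in DESeq2), and by 1.11 without CT6 replicate 1. In neither gene did the times overlap, and neither passed the adjusted edgeR test.

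The other genes of amine synthesis and transport differed in both directions. Pu (2R 21175315 to 21182608), the enzyme that starts synthesis of the tetrahydrobiopterin cofactor used by Trh and ple, had 367 and 361 CPM in the CT6 libraries, against 159 and 207 CPM in the CT0 libraries. The CT6 duplicates were close and both above CT0 (0.99 ± 0.34, edgeR unadjusted p = 0.016; 0.98 without CT6 replicate 1). Ddc, the decarboxylase shared by serotonin and dopamine synthesis, had 1634 and 992 CPM at CT6, against 923 and 915 CPM at CT0, and the vesicular transporter Vmat had 2854 and 937 CPM at CT6, against 983 and 939 CPM at CT0. For Vmat the CT6 excess was in replicate 1 only, and without that library the difference was −0.03. Of the dopamine genes, ple, tyrosine hydroxylase, had 389 and 96.3 CPM at CT6, against 348 and 265 CPM at CT0, lower in CT6 replicate 2 only. DAT, the dopamine transporter, had 279 and 60.7 CPM at CT6, against 303 and 331 CPM at CT0. Both CT6 libraries were below both CT0 libraries for DAT (−0.90 ± 0.67, and −0.19 without CT6 replicate 2). Without overlap, 4 of the 10 genes were higher, against 13.2% of all genes, and DAT alone was lower, against 11.8%. The octopamine genes Tbh and Tdc2 had 172 and 206 CPM at CT6, against 174 and 301 CPM at CT0, and 91.1 and 95.7 CPM at CT6, against 81 and 141 CPM at CT0. Hdc, histidine decarboxylase, was at 0 in 3 of the libraries. In all, 5 of 10 genes were higher at CT6 and 5 lower. The median difference was 0.13, and 3 of them, Trh, SerT and Pu, were at an unadjusted p under 0.05, against 2.13% of all genes in that direction. The list was chosen with earlier results of these data known, so this is not an independent test. Without CT6 replicate 1, 4 were higher and 6 lower, with a median of −0.12.

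All 18 heat-shock genes tested had a fitted difference above 0, with a median of 0.61 log2 units, and 6 were at an unadjusted p under 0.05 (against 2.13% of all genes in that direction), while 7 were higher without overlap between the times, against 13.2% of all genes. Hsp70Ba, Hsp70Bbb and Hsp70Bc are among the 6. The Hsp70 copies are nearly identical, so they do not count as independent members in these shares. The list summed to 64636 CPM in CT6 replicate 1 and 38768 CPM in CT6 replicate 2, against 26222 and 39272 CPM at CT0. So replicate 1 of CT6 was the highest and replicate 1 of CT0 the lowest, with the other libraries nearly equal. Without CT6 replicate 1, 15 of 18 were above 0 and the median was 0.20, and without CT0 replicate 1, 15 of 18 were above 0 and the median was 0.35.

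Several genes of small heat-shock proteins, which hold unfolded proteins in solution, kept most of their difference without CT6 replicate 1. Hsp67Bc (3L 9371511 to 9372497) had 1073 and 816 CPM in the CT6 libraries, against 597 and 593 CPM in the CT0 libraries (0.67 ± 0.23, edgeR unadjusted p = 0.018; 0.46 without CT6 replicate 1). Hsp22, the mitochondrial member, had 3547 and 3244 CPM at CT6, against 1989.6 and 2628 CPM at CT0 (0.56 ± 0.24; 0.49 without CT6 replicate 1). Hsp26 had 7444 and 6849 CPM at CT6, against 4232 and 6138 CPM at CT0, and in these 3 genes the times did not overlap. The Hsp70 copies, the chaperones most strongly induced by heat, were highest in CT6 replicate 1. Hsp70Ab (3R 11958535 to 11960909) had 13084 and 5061 CPM in the CT6 libraries, against 2971 and 5326 CPM in the CT0 libraries, with overlap between the times, a difference of 1.13 ± 0.47 and 0.29 without CT6 replicate 1. Hsp70Ba overlapped as well, with 9670 and 4103 CPM at CT6, against 2902 and 4113 CPM at CT0. Hsp70Bc did not, with 873 and 446 CPM at CT6, against 257 and 391 CPM at CT0 (1.02 ± 0.37, and 0.46 without CT6 replicate 1). Nor did Hsp70Bbb, with 1361 and 618 CPM at CT6, against 404 and 595 CPM at CT0 (0.99 ± 0.38, and 0.31 without CT6 replicate 1). The copies are nearly identical, so how reads were shared among them is uncertain. Hsp83, the fly Hsp90, had 8472 and 4559 CPM at CT6, against 3853 and 5197 CPM at CT0, and the difference without CT6 replicate 1 was 0.01. The transcription factor gene Hsf had 222 and 197 CPM at CT6, against 170.4 and 214 CPM at CT0. Of 17 chaperone and stress genes of the endoplasmic reticulum, 12 were higher and 5 lower (median 0.21), with 0 at an unadjusted p under 0.05. The median of that list was 0.06 without CT6 replicate 1 (9 higher, 8 lower), 0.05 without CT0 replicate 1 and 0.06 with each library's trend with gene length removed. With that trend removed, the heat-shock median was 0.60, and 16 of 18 genes were above 0. Heat-shock levels were highest in CT6 replicate 1, and the part of that library's differences in Pdf and Lk in this result was not tested.

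**Figure D3:**
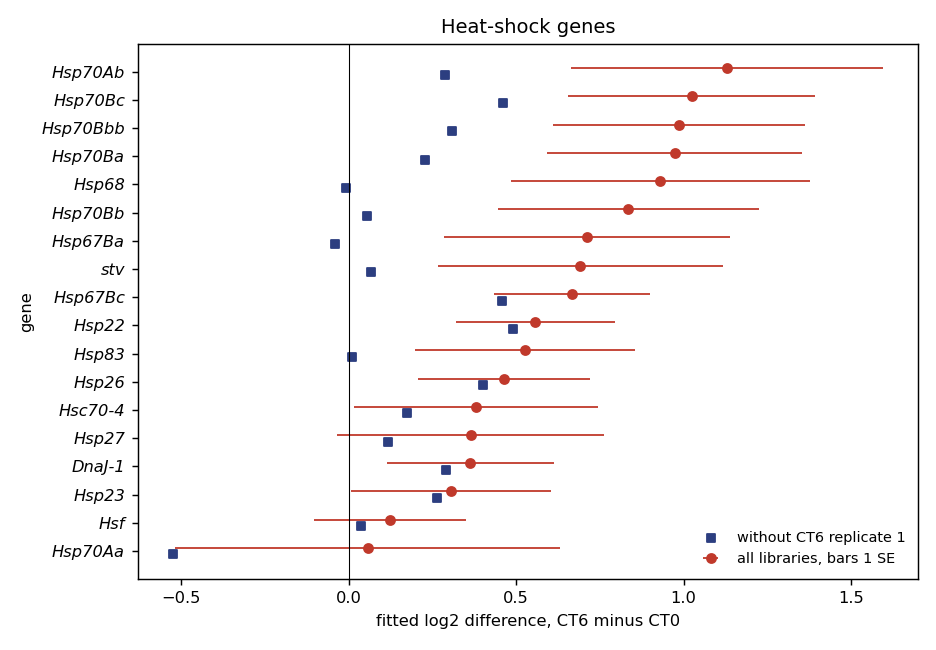
Fitted log2 difference, CT6 minus CT0, of the 18 heat-shock genes tested, with all libraries (red circles, bars of 1 SE) and without CT6 replicate 1 (blue squares). All red points lie above 0, and 15 of 18 blue points do, most of them nearer to 0.

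Of 10 genes that neuronal activity is known to induce, 7 were higher at CT6 and 3 lower, with a median of 0.34. CG14186 had 165 and 104 CPM in the CT6 libraries, against 38 and 98.6 CPM in the CT0 libraries (0.98 ± 0.42, edgeR unadjusted p = 0.043; 0.61 without CT6 replicate 1, and 0.45 without CT0 replicate 1). The times did not overlap, although 1 CT0 library came close to the lower CT6 library. Hr38, a nuclear receptor gene widely used as an activity marker, had 25 and 72.3 CPM at CT6, against 13.3 and 42.7 CPM at CT0, and sr, an early growth response factor, had 124 and 66.8 CPM at CT6, against 38.8 and 74.7 CPM at CT0. Both overlapped between the times.

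Of 18 neuropeptide genes, 6 were higher and 12 lower at CT6, with a median of −0.41, and −0.36 without CT6 replicate 1 and −0.18 without CT0 replicate 2. Ms (3R 24341551 to 24343825), myosuppressin, had 364 and 1395 CPM in the CT6 libraries, against 5988 and 3399 CPM in the CT0 libraries. Both CT6 libraries were below both CT0 libraries, with a difference of −2.42 ± 0.83 (edgeR unadjusted p = 0.017; −1.75 without CT6 replicate 1). The ion transport peptide gene ITP (2R 24537421 to 24558961), made in lateral clock neurons, had 904 and 1706 CPM at CT6, against 4518 and 1490.0 CPM at CT0 (−1.20 ± 0.48, edgeR unadjusted p = 0.031; −0.82 without CT6 replicate 1, and −0.19 without CT0 replicate 1), and its times overlapped. CCHa1 of dorsal clock neurons had 344 and 220.1 CPM at CT6, against 483 and 711 CPM at CT0, and Dh31, a sleep and temperature peptide of dorsal clock neurons, had 6803 and 4251 CPM at CT6, against 8915 and 9157 CPM at CT0. Mip, the myoinhibitory peptide, had 3501 and 1692 CPM at CT6, against 4550.4 and 4304 CPM at CT0, and AstC, allatostatin C, had 3901 and 3344 CPM at CT6, against 4087 and 4852 CPM at CT0. None of these 4 overlapped between the times, so with Ms 5 of 18 were lower without overlap, against 11.8% of all genes. Each of the 4 had an unadjusted p above 0.05 in edgeR, and their fitted differences were −1.08, −0.71, −0.77 and −0.30.

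Other peptide genes varied mainly between duplicates. CNMa had 225 and 13.4 CPM at CT6, against 80.7 and 186 CPM at CT0, and sNPF, the short neuropeptide F, had 1009 and 1188 CPM at CT6, against 1204 and 432 CPM at CT0. Nplp1 and Proc were highest in CT6 replicate 1, with 1307 and 483 CPM at CT6, against 579.7 and 449 CPM at CT0, and 856 and 303 CPM at CT6, against 191 and 362 CPM at CT0. Lk was the only peptide gene higher without overlap (7.53 ± 2.30, edgeR unadjusted p = 0.009), a difference set by CT6 replicate 1, and 1.49 without it. For Pdf the fitted difference was −0.36 ± 1.61, and for NPF 1.08 ± 1.36.

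**Figure D4:**
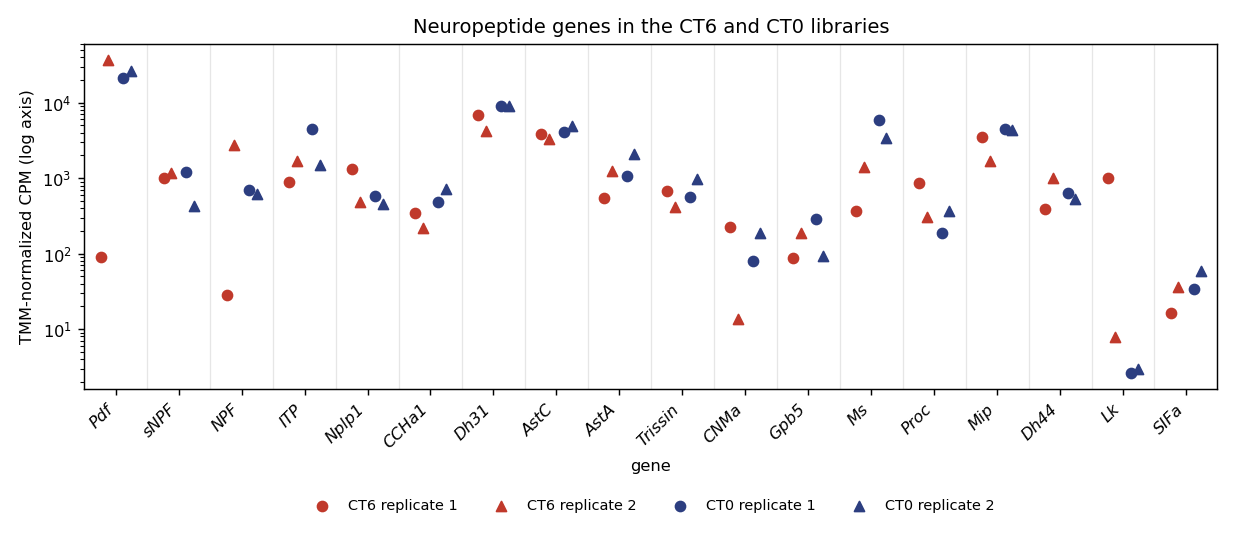
TMM-normalized CPM (log axis) of the 18 neuropeptide genes in each library, with CT6 in red and CT0 in blue, circles for replicate 1 and triangles for replicate 2. CT6 replicate 1 is far below the other libraries for Pdf and NPF and far above them for Lk, and the CT6 points of Ms, CCHa1, Dh31, Mip and AstC lie below both CT0 points.

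Among 28 receptor genes for peptides, amines and other transmitters, 15 were higher and 13 lower (median 0.07). The receptor of short neuropeptide F, sNPF-R (3L 20058511 to 20089007), had 43 and 26 CPM in the CT6 libraries, against 18.6 and 13.9 CPM in the CT0 libraries (1.08 ± 0.36, edgeR unadjusted p = 0.015; 0.68 without CT6 replicate 1). The receptor of the CNMamide peptide, CNMaR (3L 9644109 to 9659433), had 23.9 and 45 CPM in the CT6 libraries, against 72 and 75.8 CPM in the CT0 libraries (−1.10 ± 0.37, edgeR unadjusted p = 0.015; −0.72 without CT6 replicate 1). The PDF receptor gene Pdfr had 137 and 101 CPM at CT6, against 80.4 and 109 CPM at CT0, with overlap. Without CT6 replicate 1 only 4 of the 28 were higher, and the median was −0.41. Of 26 ion channel genes tested, 18 were higher (median 0.05), and 3 were so without CT6 replicate 1. The potassium channel gene KCNQ had 23.6 and 15.5 CPM at CT6, against 7.34 and 7.89 CPM at CT0 (1.36 ± 0.54, edgeR unadjusted p = 0.033; 1.03 without CT6 replicate 1), and it overlaps other annotated genes. Of the 5 genes that define acetylcholine, glutamate and GABA neurons, 2 were higher and 3 lower. VGAT, the vesicular GABA transporter, had 41.2 and 43.2 CPM at CT6, against 76.1 and 48.8 CPM at CT0. Of 13 genes of synaptic release, 5 were higher, and the whole range was −0.27 to 0.31.

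The genes with the smallest p-values outside these lists were mostly of low level. Pdh (3L 16353233 to 16354297), a retinoid dehydrogenase known from the pigment cells of the eye, had 169 and 87.5 CPM in the CT6 libraries, against 16.7 and 3.59 CPM in the CT0 libraries (3.66 ± 0.96, edgeR unadjusted p = 0.0038; 3.11 without CT6 replicate 1), and its exons overlap those of Tcs3 and an antisense RNA. Pka-C3 (3L 15925805 to 15954797), a protein kinase A catalytic subunit, had 106 and 60.7 CPM at CT6, against 42.3 and 32.7 CPM at CT0 (1.15 ± 0.31; 0.69 without CT6 replicate 1). Lmx1a (3L 12329232 to 12335901), a LIM homeobox factor, had 86.9 and 19.1 CPM at CT6, against 11 and 12.2 CPM at CT0, so most of its difference lay in replicate 1. CG8679 had 28.1 and 18.8 CPM at CT6, against 7.16 and 7.64 CPM at CT0, and the tubulin gene betaTub60D had 2.21 and 2.76 CPM at CT6, against 0.106 and 0.0422 CPM at CT0.

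Of the 12 higher genes with the smallest p, 4 were at 0 in both CT0 libraries, so only lower bounds can be given, against a floor of 3 counts in each library. Est-6 (3L 12188818 to 12190705), a carboxylesterase, had 22.7 and 9.996 CPM at CT6, against 0 and 0 CPM at CT0, at least 140.2-fold higher at CT6 in mean and at least 85.8-fold without CT6 replicate 1, and its exons overlap thoc6. CG5867 (2L 13236494 to 13239297) had 77 and 1.62 CPM at CT6, against 0 and 0 CPM at CT0, at least 338-fold higher in mean, though almost all of that came from replicate 1, and at least 13.9-fold without it. RhoL, a small GTPase, and CG14830 had no more than 2.0 CPM in a CT6 library, at least 14-fold and at least 11.8-fold higher.

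Among the lower genes, E(spl)m6-BFM (3R 26032911 to 26034047), a Bearded family gene of the Enhancer of split complex that Notch signalling controls, had the smallest p of all genes. It had 11.2 and 10.5 CPM in the CT6 libraries, against 39.2 and 56 CPM in the CT0 libraries. The times did not overlap, and the difference was −2.13 ± 0.36 (edgeR unadjusted p = 0.00018; adjusted p = 8.4e-05 in DESeq2), and −2.18 without CT6 replicate 1. Of 6 Notch pathway genes tested, this one included, 3 were higher and 3 lower (median −0.01). The globin gene glob1 (3R 15896926 to 15904643) had 72.4 and 77.4 CPM in the CT6 libraries, against 138 and 162 CPM in the CT0 libraries (−1.002 ± 0.22, edgeR unadjusted p = 0.0014; −0.95 without CT6 replicate 1). Eip63F-1 (3L 3909973 to 3935617), a calcium-binding protein gene first found as an ecdysone target, had 93.2 and 117 CPM at CT6, against 204 and 217 CPM at CT0 (−1.003 ± 0.26; −0.85 without CT6 replicate 1), with an antisense gene over its exons. CG34351 (2L 4694721 to 4722465) had 18.4 and 21 CPM at CT6, against 46 and 42.1 CPM at CT0, and CG13229 had 75.8 and 85.8 CPM at CT6, against 152 and 182 CPM at CT0. When each of the 8 libraries was left out in turn, the difference of E(spl)m6-BFM stayed between −2.37 and −1.85, and that of glob1 between −1.12 and −0.88.

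AstCC and natalisin, neuropeptide genes outside the list, were lower as well. AstCC (2L 11083459 to 11085229), the allatostatin double C gene next to AstC, had 2.64 and 2.28 CPM at CT6, against 23 and 8.78 CPM at CT0 (−2.69 ± 0.71, edgeR unadjusted p = 0.004; −2.80 without CT6 replicate 1). Natalisin (natalisin in the files, 3R 14418593 to 14421865), a peptide gene known for a role in mating behaviour, had 0 and 0 CPM in the CT6 libraries, against 1466 and 1631 CPM in the CT0 libraries. It was thus at least 12321-fold lower at CT6, and DESeq2 called it (adjusted p = 3.3e-16), as did edgeR with the 4 CT6 and CT0 libraries alone (adjusted p = 8.6e-05). The edgeR fit of all 8 libraries did not (adjusted p = 1). The CT18 duplicates, which enter its spread, had 0.348 and 3946 CPM, and without CT18 replicate 1 or replicate 2 the edgeR adjusted p was 0.028 or 0.023. An antisense RNA overlaps the gene. CARPA and CG42566 were also among the 12 lower genes with the smallest p, with 16.9 and 10.6 CPM at CT6, against 30.2 and 53 CPM at CT0, and 12.2 and 14.7 CPM at CT6, against 28.8 and 28.8 CPM at CT0. The other 3 of the 12, CG6763, CG12637 and CG13287, were at 0 in both CT6 libraries and at no more than 3.0 CPM in a CT0 library. In all, 103 genes were at 0 in both CT6 libraries with over 3 counts in both CT0 libraries, and 69 genes showed the opposite.

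Markers of other cell types differed between libraries, at levels mostly far below those of the neuron markers. Of 9 hemocyte markers tested, 9 had a fitted difference above 0, against 51.6% of all genes, and 7 were higher without overlap, against 13.2% of all genes, at low levels. A gene near the floor can pass the filter on low counts through the libraries where it is high, so these counts are partly set by the filter. For srp, levels were 0.796 and 2.52 CPM at CT6, 0 and 0 at CT0, 5.64 and 0 at CT12, and 0.0348 and 0 at CT18. NimB4 had 2.21 and 8.38 CPM at CT6, against 0.0709 and 0 CPM at CT0, NimC1 had 6.7 and 12.6 CPM at CT6, against 0.638 and 0 CPM at CT0 and Hml, hemolectin, had 4.02 and 7.57 CPM at CT6, against 2.02 and 0 CPM at CT0. The list summed to 202 and 169.5 CPM at CT6, against 105 and 118 CPM at CT0, much of it from Pxn and crq, and of 10 markers 1 was at 0 in each CT6 library, against 2 and 7 in the CT0 libraries. Photoreceptor markers summed highest in CT0 replicate 2: Arr1, an arrestin, had 1.99 and 1.67 CPM at CT6, against 0.603 and 84 CPM at CT0, and Arr2 had 16.4 and 7.62 CPM at CT6, against 0.213 and 253 CPM at CT0. That list summed to 192 and 122 CPM at CT6, against 142 and 491 CPM at CT0. Of its 14 genes 5 were higher and 9 lower (median −0.25), but 10 were higher and 3 lower without CT0 replicate 2 (median 2.14). Rh6, a rhodopsin, had 0 and 7.43 CPM at CT6, against 0 and 0 CPM at CT0. Of 12 glial markers 5 were higher and 7 lower, or 8 and 4 without CT0 replicate 1, and the astrocyte transporter Eaat1 had 13.4 and 31.3 CPM at CT6, against 57.9 and 31.9 CPM at CT0. Fat body markers (4 of 6 tested higher) summed to 44.3 and 21.4 CPM at CT6, against 40.1 and 38.3 CPM at CT0. The part of such cells in other results, Pdh and Est-6 among them, was not tested.

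The libraries also differed by gene length. Effective length was set against each library's deviation from the mean of the others, over 5766 genes whose log2 CPM averaged 4 or more. Spearman rho was 0.684 and −0.223 at CT6 (replicates 1 and 2), against −0.342 and 0.412 at CT0. The median difference between the times accordingly ran from −0.18 in the shortest of 10 bins of these genes to 0.24 in bin 9 and 0.05 in the longest. Families of short genes were lower at CT6 by small amounts. Of 73 mitochondrial ribosomal protein genes 66 were lower (median −0.19), of 68 nuclear genes of oxidative phosphorylation 58 were lower (−0.24), and of 86 cytoplasmic ribosomal protein genes 71 were lower (−0.11). With the length trend removed, these medians were −0.06, −0.07 and 0.04, and 51 of 73, 49 of 68 and 29 of 86 genes were lower. Without CT6 replicate 1, 41 of 73 and 46 of 68 genes of the mitochondrial ribosome and of oxidative phosphorylation were lower (medians −0.03 and −0.04), and 77 of 86 cytoplasmic ribosomal protein genes were higher. Without CT0 replicate 1, 38 of 73, 45 of 68 and 59 of 86 were lower (medians −0.01, −0.09 and −0.08). The 11 mitochondrially encoded genes tested were all lower (median −0.42), 5 of 11 were so with the trend removed, and 1 was without CT0 replicate 1. None of these genes was at an unadjusted p under 0.05.

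**Figure D5:**
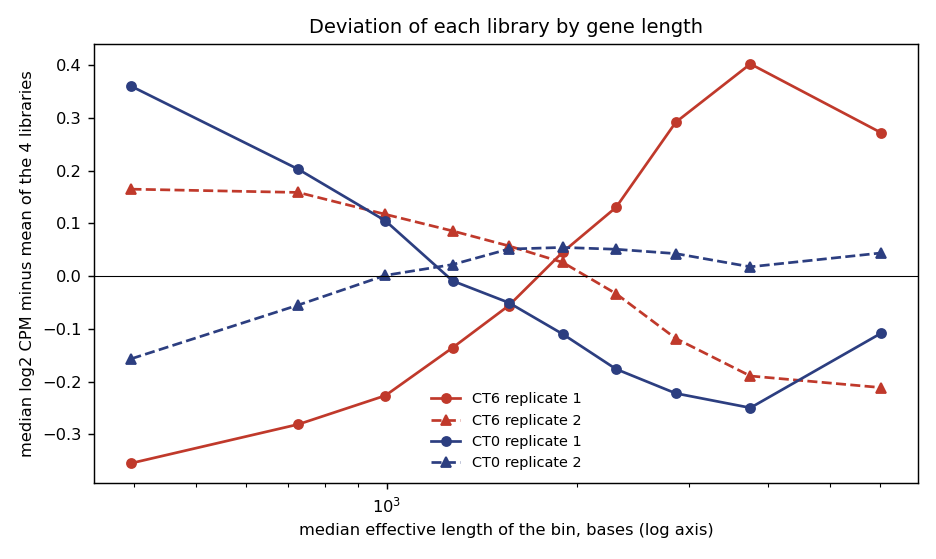
Median deviation of each library from the mean of the 4 libraries (vertical axis, log2 CPM) in 10 bins of genes by effective length (horizontal log axis, bases). Only genes whose log2 CPM averaged 4 or more are included. CT6 replicate 1 (red circles) runs from −0.35 for the shortest genes to 0.40 in bin 9, and CT0 replicate 1 (blue circles) runs the other way.

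The remaining lists had members on both sides, and among their tested genes Eip63F-1, described above, was the only one at an unadjusted p under 0.05. Of 12 Brahma complex genes, the complex that mor belongs to, 7 were higher and 5 lower (median 0.09). Of 13 ecdysone response genes 6 were higher, of 35 proteasome genes 16, of 12 glycolysis genes 8, of 13 genes of oxidative stress 5, of 12 genes of insulin signalling and feeding 4, and of 9 Kenyon cell markers 2. Of 16 immune genes listed 6 were tested, and in 5 the fitted difference was above 0. Without CT6 replicate 2, 3 were higher and 2 lower. Here too a gene near the floor can pass the filter through other libraries, as AttD did with 41.7 CPM in CT18 replicate 2. Rel, the NF-kappaB factor of the Imd pathway, had 49.6 and 42.3 CPM at CT6, against 26.8 and 24.6 CPM at CT0, without overlap between the times. The male dosage compensation RNAs and sex genes roX1, roX2, msl-2 and Sxl had fitted differences between −0.10 and 0.28.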

How the data were processed

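PolyA RNA of sorted cells was made into cDNA with a NEBNext low-input kit, tagmented (Nextera XT) and sequenced from both ends over 100 bases, per the labels' protocols. The authors' deposited gene tables list 17868 genes, of which 13512 had a count. Per the file headers, the authors deposited an estimated count (NumReads, not normalized) and a TPM for every gene, beside its length and effective length. The submitters' processing notes name DRAGEN, Salmon and dm6. Not given in the sources used here are their roles and versions, the annotation, and whether strand was used in counting. Reads of overlapping genes therefore cannot be told apart.

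Estimated counts were rounded, filtered with filterByExpr (minimum count 10, times as groups), scaled by TMM and fitted with edgeR 4.0.16 (R 4.3.3), with time as a factor of 4 levels, 4 residual degrees of freedom, prior degrees of freedom of 5.43 and a median biological coefficient of variation of 0.311. The contrast was CT6 minus CT0, with Benjamini-Hochberg adjustment at 0.05 over 9999 genes. An exact permutation test of 1 value between 2 and 2 libraries cannot go below p = 0.333, so none is given. The fit was tested on simulated counts, with 50 genes changed at each size. It called 2% of genes changed by 1 log2 unit and 50% of those changed by 2. For changes of 3 and of 4 log2 units it called 86%, and it called 7 of 9420 unchanged genes. Most changes of 1 log2 unit would thus be missed.

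The gene members and lists were chosen with earlier results of these data known, so list counts set beside the shares of all genes are not independent tests. Named genes were the core clock genes and mor, the 12 with the smallest p in each direction among those whose times did not overlap, and in each list up to 4 with an unadjusted p under 0.05 or else the 2 with the smallest p. Some genes picked in this way are not described above, and other list members were named after their values were seen. Of the symbols listed, Hop had no match. Gene positions were read from Ensembl's release 115 for BDGP6.54 (dm6 coordinates), and for Trh, CG5867 and CG34351 from the RefSeq table through a synonym, and neither need be the annotation the authors used. Alternatives were RLE factors, no filter, 5 CPM in 2 libraries, DESeq2 1.42.0, limma-voom and limma-trend (limma 3.58.1) on log2(TPM + 1) from the deposited TPM values, the 4 libraries alone, a replicate block, an effective length offset, a lowess trend (span 0.3) against effective length subtracted from every library, no mitochondrial genes, a robust prior, and leaving out each library in turn. Figures were drawn with matplotlib 3.10.9 in Python 3.11.15.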

Additional observations from a re-analysis of the deposited data

How the results depend on the processing

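No gene was called with edgeR's adjusted p or under any alternative other than the following. Calls numbered 98, with 2 core clock genes (vri and tim) and 16 list members among them, without the filter on low counts, where its prior degrees of freedom were infinite and each gene's own spread was not used. DESeq2 called 4 genes (3 list members), the 4 libraries alone gave 1, and leaving out each library in turn gave 0 to 1. At an unadjusted p under 0.05 the count was 703 without the filter, 213 with 5 CPM in 2 libraries, and 237 to 1062 with a library left out, against 320.

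Correlations of the deviations of same-numbered libraries ran from −0.066 to 0.230 between pairs of times. Replicate 1 nevertheless had the higher percentage of counts from mitochondrial genes at every time. At CT6 it was 0.111 and 0.0693, at CT0 0.167 and 0.0706, at CT12 0.154 and 0.0984, and at CT18 0.192 and 0.0732. What same-numbered libraries share is not known. The replicate block gave 0 called genes and 312 at an unadjusted p under 0.05. Of 1773 values of 90 named genes over 20 alternatives, 21 changed sign, and 72 genes had none. Many of these genes were picked because their times did not overlap, so leaving out a CT6 or CT0 library could hardly reverse them. Other alternatives, such as leaving out a CT12 or CT18 library, barely alter the CT6 minus CT0 difference. These counts were thus partly set by the choice of genes and alternatives, and are no independent measure of stability. With the length trend removed, mor (−0.074) and msl-2 (−0.039) changed sign. With a library left out, differences that changed sign lay between −1.38 and 0.39 for Clk, −0.11 and 0.39 for cyc, −0.70 and 0.069 for Pdp1, −0.70 and 0.14 for cwo, −1.14 and 0.45 for cry, −0.63 and 0.83 for mor, −0.079 and 0.48 for Syt1, −0.68 and 1.98 for lov, −0.19 and 2.41 for Bap111, −4.23 and 8.28 for GstD2, −0.61 and 0.30 for fne, −5.52 and 1.59 for Arr1, −0.94 and 0.20 for Fas2, −0.52 and 0.78 for msl-2, −0.94 and 0.010 for RpL29, −1.22 and 0.32 for RpL39, −0.32 and 1.75 for ND-75 and −0.98 and 0.45 for COX3. The causes were not tested. Levels near the floor of 3 counts could not be compared.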
